A study of Mus musculus with 6 samples.

Results

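The ErbB receptors and their ligands were compared between neural crest stem cells (NCSC) and mesenchymal stem cells (MSC) grown from the bone marrow of adult mice. The 10 genes are the 4 receptors Egfr, Erbb2, Erbb3 and Erbb4, the 5 ligands Nrg1, Hbegf, Ereg, Btc and Tgfa, and the feedback inhibitor Errfi1, out of 18193 genes with a probe set. Every probe set annotated to exactly 1 of them was taken, which gave 22 probe sets of 45101 on the array. There were 3 arrays of NCSC and 3 arrays of MSC. Per the labels, both cell types came from female mice aged 10 weeks of C57BL/6 x SV129 background that carried wnt1/CRE together with R26R-lacZ, a reporter that Cre recombinase switches on, so that cells descended from the neural crest keep lacZ active. Both were cultured in Mesencult for 5 passages or more and then cloned. The labels do not say how many animals or clones stand behind the replicates, so the p-values reflect only how much these samples vary, part of which may be technical. If each cell type stands for 1 clone, clone and cell type cannot be told apart.

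ErbB proteins are receptor tyrosine kinases that signal as pairs. Egfr binds Tgfa, Hbegf, Btc and Ereg, whereas Erbb3 and Erbb4 bind the neuregulins, of which Nrg1 is the best studied. Erbb2 has no known ligand and serves as a partner, and Erbb3, whose own kinase is weak, needs such a partner to signal. Nrg1 acting through Erbb3 and Erbb2 is known for its role in the migration of neural crest cells and in the survival and growth of Schwann cell precursors. Egfr signalling is known to support the proliferation of stromal progenitors in bone marrow. The ligands are made as membrane proteins and are released by proteases.

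Upstream sequences are shown for both receptors that were lower in NCSC (Egfr and Erbb2) and for a ligand that was higher (Btc). They are the 250 bases before the annotated gene start, 5′ to 3′ on the gene's strand, from RefSeq on GRCm38.p6, where 6 of the 10 genes had a window. Capitals mark matches, on either strand, to a GC box (GGGCGG) or an ETS core (CCGGAAG).
Egfr, chr11:16751953-16752202, plus strand: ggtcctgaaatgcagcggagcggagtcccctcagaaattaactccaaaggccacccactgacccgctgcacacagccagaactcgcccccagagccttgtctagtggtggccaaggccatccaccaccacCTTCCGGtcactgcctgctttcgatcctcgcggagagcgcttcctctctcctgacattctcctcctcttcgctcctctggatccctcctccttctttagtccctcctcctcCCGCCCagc
Erbb2, chr11:98412234-98412483, plus strand: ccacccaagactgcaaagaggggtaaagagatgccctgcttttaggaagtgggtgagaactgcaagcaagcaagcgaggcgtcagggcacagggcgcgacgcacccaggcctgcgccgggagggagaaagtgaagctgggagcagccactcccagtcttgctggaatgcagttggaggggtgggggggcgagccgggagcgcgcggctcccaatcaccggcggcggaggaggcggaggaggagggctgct
Btc, chr5:91402995-91403244, minus strand: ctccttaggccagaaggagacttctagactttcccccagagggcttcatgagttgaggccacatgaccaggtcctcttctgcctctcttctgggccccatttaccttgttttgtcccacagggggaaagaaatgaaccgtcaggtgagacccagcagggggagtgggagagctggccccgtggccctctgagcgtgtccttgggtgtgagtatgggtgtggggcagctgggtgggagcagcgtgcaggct
The Egfr window held 1 GC box, which ended 3 bases before the gene start, and 1 ETS core, which ended 113 bases before it. Among 32817 windows of the same length, 32.7% held a GC box and 6.9% an ETS core. The Erbb2 and Btc windows held neither, nor a match to GCCNNNGGC (AP-2, in 13.7% of windows), TATAAA (12.4%), TGANTCA (AP-1, 6.75%) or ACAAT (SOX, 27.7%), each searched on both strands. No 2 motifs overlapped in the windows shown. Of the windows not shown, that of Tgfa held 2 GC box and 2 AP-2 matches, and that of Erbb4 held 1 SOX match. Neither lies at the annotated gene start. The Errfi1 window at the gene start held no match, and its other window held 3 GC box matches and 1 TATAAA match. The G and C content was 60.8% for Egfr, 66% for Erbb2 and 59.6% for Btc, beside a median of 52.4% over all windows. These matches describe the letters only, and no measurement of binding was made.

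All values below are log2 GCRMA intensities, and differences are NCSC minus MSC. A probe set was kept when its log2 value was above 4 on at least 3 of the 6 arrays. Between 45.2% and 45.5% of the probe sets of an array were above that limit, and the median of the 10501 genes tested lay between 9.74 and 9.82. The precision is limited by 3 arrays a group. NCSC 3 and MSC 2 stood apart from the other arrays of their cell type. On NCSC 3, 13.4% of the tested genes lay more than 0.5 nearer to the MSC mean than the mean of the other NCSC arrays did, against 2.53% on NCSC 1 and 2.51% on NCSC 2. On MSC 2 that share was 6.73%, against 2.59% on MSC 1 and 2.07% on MSC 3.

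Lineage markers followed the labels in part. Of all tested genes 64.1% were called, 35% higher and 29.1% lower in NCSC, at an adjusted p under 0.05. Of 11 Schwann cell lineage markers with a probe set 8 were tested and 8 were higher in NCSC, led by the glial cadherin Cdh19, at least 531-fold, the p75 neurotrophin receptor Ngfr, at least 257-fold, and the crest regulator Sox10, by 8.54 ± 0.25 (SE). These sizes belong to the brightest probe set of each gene, and the other kept probe sets differed by 6.13 for Ngfr and 5.37 for Sox10. Sox10 read 3.92, 4.82 and 4.17 in MSC, close to the limit. Cdh19, Ngfr, Foxd3, Fabp7 and Pou3f1 passed the limit through their NCSC arrays alone, so for 5 of the 8 the direction was fixed by their being tested. The calcium-binding protein gene S100b read 7.72, 7.29 and 2.15 in NCSC, against 2.15 on all 3 MSC arrays, and was above the limit on too few arrays to be tested. The glial intermediate filament gene Gfap and the growth cone gene Gap43 were under the limit on all 6 arrays. Of 11 tested mesenchymal stromal markers 5 were higher and 6 lower in NCSC, and the stromal markers Thy1 and Lepr were under the limit on all arrays. Nt5e, above the limit in NCSC alone, was at least 22.8-fold higher there, the coreceptor endoglin (Eng) was higher by 4.69 ± 0.25 (SE), and the adhesion molecule Vcam1 differed by -4.04 ± 0.078 (SE), each with an adjusted p from 2.18e-07 to 4.49e-05.

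The ErbB genes did not move in 1 direction. Of the 9 that could be tested, 4 were higher and 5 lower in NCSC at an adjusted p under 0.05 (limma, Benjamini-Hochberg over 10501 genes), where 64.1% of all tested genes were called, 35% higher and 29.1% lower. At least 2-fold changes were seen in 8 of the 9, beside 29% of all tested genes, and the arrays of both cell types did not overlap for 9 of the 9, beside 71.2%. Erbb3 and Btc passed the limit through their NCSC arrays alone, so a difference was built into their being tested. The other 7 were above the limit on all 6 arrays. The receptors split into 1 higher (Erbb3) and 2 lower (Egfr, Erbb2), and the ligands into 3 higher (Hbegf, Btc, Tgfa) and 2 lower (Nrg1, Ereg). In these bulk samples, fewer cells of a type and less RNA per cell cannot be told apart.

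**Figure D1:**
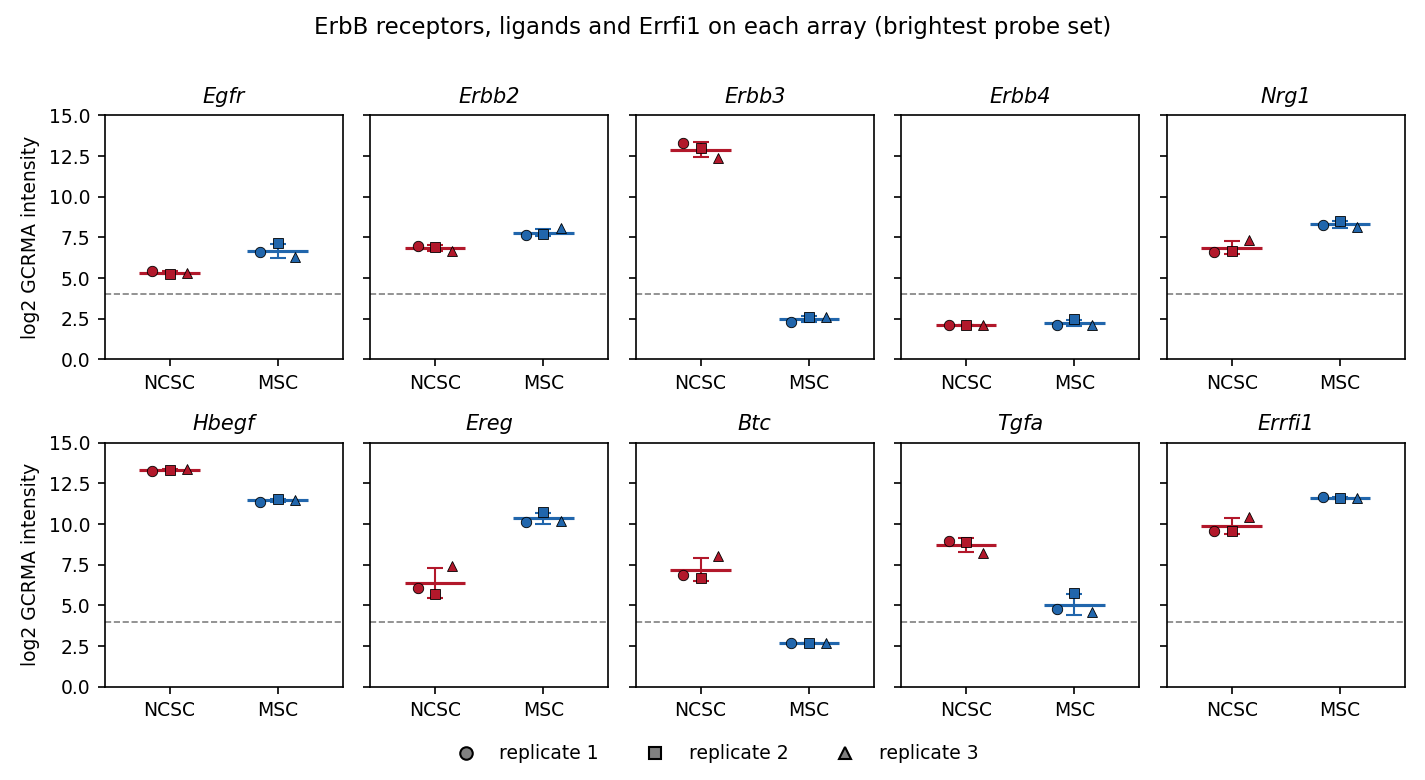
Log2 GCRMA intensity (vertical axis) of each gene's brightest probe set on the NCSC arrays (red) and the MSC arrays (blue). Points are arrays, horizontal lines the means with their SD (n = 3 each), and the dashed line is the limit of 4; the NCSC and MSC arrays do not overlap for any gene but Erbb4, which is under the limit on all 6 arrays.

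Erbb3, the neuregulin receptor of crest and Schwann lineage cells, had the highest fold bound of the family. Its probe set 1434606_at read 13.28, 13.00 and 12.38 on the NCSC arrays, against 2.29, 2.59 and 2.59 on the MSC arrays. All NCSC arrays were far above the limit and all MSC arrays under it, with the lowest NCSC value on NCSC 3. Erbb3 was higher in NCSC by at least 474-fold, a bound that sets MSC values under the limit to 4. The fitted difference of 10.40 ± 0.24 (SE) had an adjusted p of 4.47e-07 in limma. It rests on MSC readings under the limit and was 8.89 with values under 4 set to 4. Erbb3 passed the limit through its NCSC arrays alone, so a difference was built into its being tested. The bound ran from 413-fold without NCSC 1 to 564-fold without NCSC 3. The other Erbb3 probe set, 1452482_at, read the floor of 2.12 on all 6 arrays, so the result rests on 1 of its 2 probe sets. Schwann lineage markers moved with Erbb3: their summed linear intensity ran from 31380 to 37312 in NCSC and from 126 to 155 in MSC, and their part in the result was not tested.

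Egfr was lower in NCSC, by an amount that depended on the probe set. The probe set 1435888_at read 2.39, 2.41 and 2.23 on the NCSC arrays, against 9.36, 9.92 and 9.26 on the MSC arrays. It was at least 45.6-fold lower in NCSC, with an adjusted p of 1.08e-06 in the fit over 18640 kept probe sets, of which 60.1% were called and 68.4% had cell types that did not overlap. All 14 kept probe sets of the family were called and did not overlap in that fit, but 5 of them, 2 of Egfr, 1 of Erbb3 and 2 of Btc, passed the limit through 1 cell type alone, so that for these a difference was built in. Likewise 1424932_at read 2.58, 2.79 and 2.79 in NCSC, against 8.49, 9.12 and 8.68 in MSC, at least 27.2-fold lower. In both probe sets the NCSC arrays were all under the limit and MSC 2 was the highest array.

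The third kept probe set of Egfr gave a much smaller fall. By its mean over all arrays 1460420_a_at is the brightest and stands for the gene in the fit over genes, and its name marks it as matching several transcripts of the gene. It read 5.42, 5.25 and 5.31 in NCSC, against 6.58, 7.15 and 6.32 in MSC, and differed by -1.36 ± 0.21 (SE, adjusted p = 0.00192). Its fold was 2.56, beside the bounds of 45.6-fold and 27.2-fold of the others. With the mean of its kept probe sets Egfr differed by -4.86, a value that includes the NCSC readings under the limit. The remaining 4 Egfr probe sets were under the limit on all arrays. A reading above the limit may be the floor of a probe set, as may the same 5.05 that the keratin probe set of Krt5 read on all 6 arrays. Whether the NCSC readings of 1460420_a_at, which vary between arrays, lie at such a floor was not tested.

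Erbb2, the partner receptor, was measured in both cell types by its only probe set. It read 7.00, 6.89 and 6.67 on the NCSC arrays, against 7.65, 7.69 and 8.06 on the MSC arrays. The NCSC arrays were all lower, and the difference of -0.95 ± 0.15 (SE, adjusted p = 0.00194) was 1.93-fold, the smallest difference among the tested members. Its 95% confidence interval ran from -1.31 to -0.585. Erbb4, the other neuregulin-binding receptor, read 2.13, 2.14 and 2.13 in NCSC, against 2.13, 2.48 and 2.13 in MSC. It was under the limit on every array and was not tested, so no level of it can be given for either cell type.

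**Figure D2:**
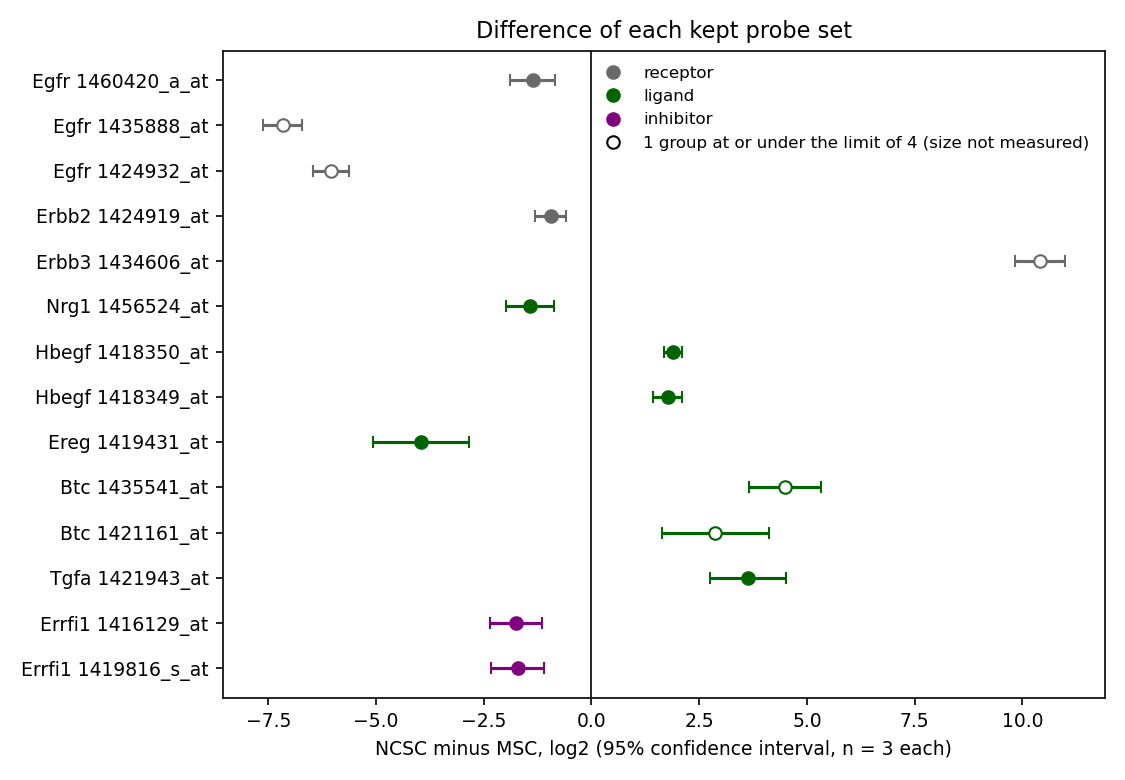
Difference of each of the 14 kept probe sets, NCSC minus MSC on the log2 scale (horizontal axis), with its 95% confidence interval (n = 3 each), coloured by role. Open circles have 1 cell type at or under the limit of 4, so their place and interval rest on readings under the limit and do not measure a size. The 3 Egfr probe sets all lie left of 0, 1 of them filled at -1.36, and both Hbegf probe sets lie close together at 1.77 and 1.89.

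Among the ligands of Egfr, 3 were higher in NCSC. Hbegf, the heparin-binding member, was bright in both cell types. Its probe set 1418350_at read 13.29, 13.34 and 13.38 in NCSC, against 11.33, 11.53 and 11.48 in MSC. The difference of 1.89 ± 0.086 (SE, adjusted p = 1e-05) was 3.7-fold, with very little spread within either cell type. The other Hbegf probe set, 1418349_at, differed by 1.77 ± 0.14 (SE, adjusted p = 0.000122).

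Betacellulin (Btc), which binds both Egfr and Erbb4, was above the limit in NCSC and under it in MSC. The probe set 1435541_at read 6.84, 6.71 and 8.01 in NCSC, against 2.70 on all 3 MSC arrays. NCSC 3 was the highest array, and Btc was at least 9.09-fold higher in NCSC (limma adjusted p = 8.71e-05), or 6.83-fold without NCSC 3. A second probe set, 1421161_at, read 5.73, 4.24 and 6.20 in NCSC, against 2.71, 2.12 and 2.71 in MSC, at least 2.62-fold higher (adjusted p = 0.00365). Both probe sets put NCSC 3 highest and NCSC 2 lowest. Both passed the limit through their NCSC arrays alone, so a difference was built into their being tested.

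Tgfa, a ligand of Egfr, was higher as well. Its probe set 1421943_at read 8.97, 8.89 and 8.19 in NCSC, against 4.78, 5.76 and 4.59 in MSC. All NCSC arrays were above all MSC arrays, and the difference of 3.64 ± 0.36 (SE, adjusted p = 0.000263) was 12.4-fold. The MSC readings lay close to the limit. The other Tgfa probe sets read 2.12 and 2.65 on every array of both cell types, so the result rests on 1 of 3 probe sets.

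Epiregulin (Ereg), a ligand of Egfr and Erbb4, went the other way. It read 6.04, 5.69 and 7.41 on the NCSC arrays, against 10.13, 10.72 and 10.18 on the MSC arrays. The cell types did not overlap, although NCSC 3 stood well above the other NCSC arrays. Ereg differed by -3.96 ± 0.45 (SE, adjusted p = 0.000488), or 15.6-fold, and by -4.48 without NCSC 3.

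Nrg1, the ligand of Erbb3 and Erbb4, was lower in NCSC, where Erbb3 was higher. Its only probe set read 6.60, 6.66 and 7.35 in NCSC, against 8.27, 8.51 and 8.12 in MSC. NCSC 3 was again the NCSC array nearest to MSC, and Nrg1 differed by -1.43 ± 0.23 (SE, adjusted p = 0.00194), or 2.7-fold. Nrg1 makes many isoforms, and 1 probe set cannot tell them apart. The other EGF-type ligands Egf, Epgn, Nrg2, Nrg3 and Nrg4 were under the limit on all 6 arrays, and Areg was not analysed here.

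Errfi1, which binds and inhibits the kinase domains of Egfr and Erbb2 and is itself induced by their signalling, was lower in NCSC. It read 9.57, 9.59 and 10.46 in NCSC, against 11.69, 11.62 and 11.57 in MSC. The MSC arrays were tightly grouped and NCSC 3 was the highest NCSC array. The difference of -1.75 ± 0.25 (SE, adjusted p = 0.00126) was 3.37-fold. A second probe set, 1419816_s_at, whose suffix marks probes shared with another gene's transcripts, differed by -1.71 ± 0.25 (SE, adjusted p = 0.00166).

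Markers of other cell types that can make ErbB ligands gave a mixed picture. Of 10 macrophage and blood cell markers with a probe set, Ptprc, Itgam, Adgre1, Cd3e and Fcgr3 were under the limit on all 6 arrays, while the lysosomal protein Cd68 was at least 27.9-fold higher in NCSC and the lysozymes Lyz2 and Lyz1 were higher by 1.97 ± 0.18 and 1.51 ± 0.15 (SE). Cd68 passed the limit through its NCSC arrays alone. The monocyte coreceptor Cd14 went the other way, with 2.19, 2.16 and 2.19 in NCSC, against 4.63, 3.96 and 5.15 in MSC, and was not tested, being above the limit on 2 arrays. Csf1r, the receptor for macrophage growth factor, differed by 0.54 ± 0.32 (SE) and was not called (adjusted p = 0.188). Without the filter on low values 3 of the 10 were higher and 1 lower. In that fit 32.03% of all 18193 genes were called, against 64.1% of the 10501 genes tested with the filter. The summed linear intensity of the macrophage and blood cell list ran from 1433 to 1722 in NCSC and from 405 to 485 in MSC. Of 9 epithelial markers 7, among them Epcam and Cdh1, were under the limit on all arrays, and Krt19, a keratin, was at least 258-fold lower in NCSC, having passed the limit through its MSC arrays alone. All 8 endothelial markers were under the limit on every array. The part of the macrophage-type genes and of Krt19 in the ligand values was not tested.

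Several ErbB genes stood apart on array NCSC 3. On that array Erbb3, Nrg1, Ereg, Tgfa and Errfi1 lay between 0.721 and 1.55 nearer to MSC than the mean of the other NCSC arrays, that is 5 of the 9 tested genes. Btc went the other way on the same array, with a shift of -1.24, while Egfr, Erbb2 and Hbegf shifted by less than 0.5. On MSC 2, Tgfa lay 1.08 nearer to NCSC, and Egfr and Ereg lay further away. Without NCSC 3 and MSC 2 together, as without each array in turn, 4 members were higher and 5 lower in NCSC. Of all tested genes 74.02% were called without NCSC 3 and MSC 2 together, and 54.34% to 68.41% without each array in turn. With all arrays the share was 64.1%. Erbb3 and Btc passed the limit through their NCSC arrays alone, so their direction was built in.

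**Figure D3:**
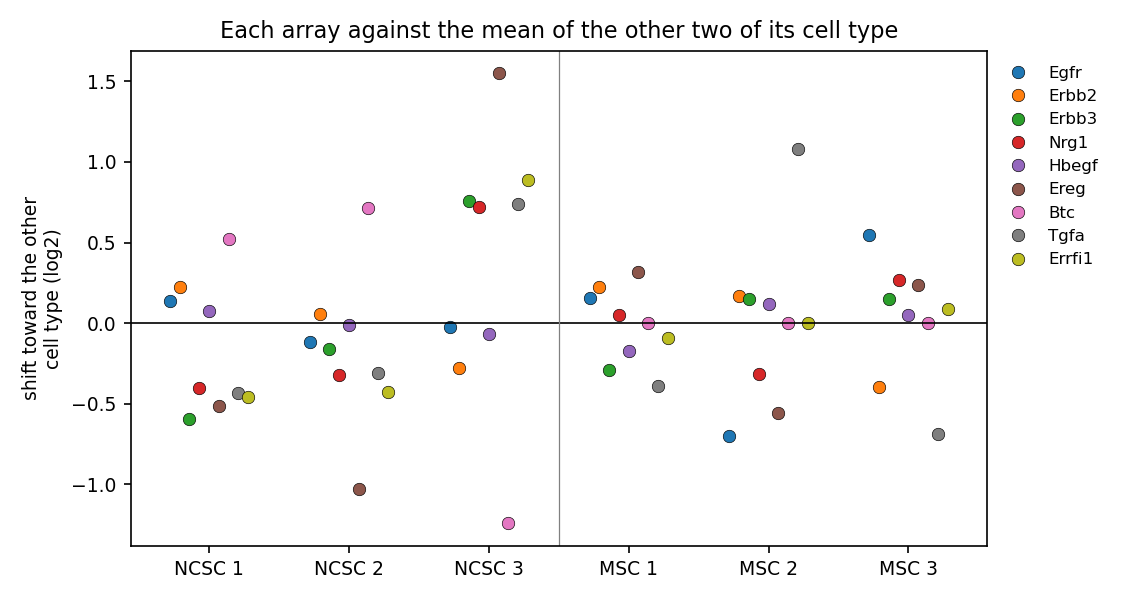
Shift of each tested ErbB gene on each array, measured from the mean of the other arrays of the same cell type (vertical axis, log2). Values above 0 lie nearer to the other cell type; on NCSC 3 Ereg is the highest at 1.55 and Btc the lowest at -1.24.

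The pathway around the receptors was read from lists of proteases, adaptors, inhibitors and targets. Of 14 tested genes on the list for ligand release and traffic 8 were higher, 3 lower and 3 not called in NCSC. Of all tested genes 35% were higher and 29.1% lower. The median difference of the list was 0.513, beside 0.0563 for all tested genes. The lower genes include Timp3 (-0.92 ± 0.073, SE), which inhibits metalloproteases and does not release ligands itself. The aspartyl protease Bace2, above the limit in NCSC alone, was at least 9.71-fold higher there, the inactive rhomboid Rhbdf1, which escorts Adam17, was higher by 2.10 ± 0.13 (SE), and the metalloprotease Adam12 by 1.81 ± 0.16. The ligand sheddases Adam10 and Adam17, named for their role after their values were seen, were higher by 1.42 ± 0.11 and 1.18 ± 0.087, and Adam9 differed by -1.29 ± 0.08. For Adam10 the other kept probe sets differed by 2.37 and 2.5, and for Bace2 by 2.99 and 4.1.

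Of 31 tested adaptors and core kinases 13 were higher, 5 lower and 13 not called in NCSC. Of all tested genes 35% were higher and 29.1% lower. The median difference of the list was 0.292, and no lower member reached 2-fold. Without MSC 1, MSC 3, NCSC 1 or NCSC 2 the count of lower members was 3. In those fits 54.34% to 56.05% of all tested genes were called, against 64.1% with all 6 arrays. The adaptor Shc4 read 10.82, 10.93 and 9.95 in NCSC, against 5.70, 5.74 and 5.69 in MSC, a difference of 4.86 ± 0.26 (SE). The exchange factors Vav2 and Sos2 were higher by 1.97 ± 0.23 and 1.27 ± 0.13. Grb2, the adaptor that links ErbB receptors to Ras, named for that role, differed by -0.014 ± 0.078 and was not called (adjusted p = 0.891).

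The list of negative regulators was mixed. Of 28 tested members 14 were higher, 8 lower and 6 not called in NCSC. Of all tested genes 35% were higher and 29.1% lower. The median difference of the list was 0.333, beside 0.0563 for all tested genes. The count of higher members ran from 10 with the mean of kept probe sets to 18 with array weights, and 8 were lower in both. In those fits 64.34% and 77.17% of all tested genes were called. The list also holds genes that need not inhibit, such as the kinase cochaperone Cdc37 (-0.41) and the deubiquitinase Usp8 (0.57). Lrig1, a membrane protein that promotes the breakdown of ErbB receptors, read 13.60, 13.42 and 13.77 in NCSC, against 10.73, 11.03 and 10.80 in MSC, a difference of 2.74 ± 0.13 (SE, adjusted p = 1.14e-05) that its other probe set shared at 2.77. The Sprouty inhibitors of Ras signalling differed among themselves. Spry1, above the limit in NCSC alone, was at least 12.1-fold higher there, and Spry4 differed by -2.93 ± 0.18 (SE).

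Of 19 tested immediate targets of the kinase ERK 4 were higher, 9 lower and 6 not called in NCSC, with a median difference of -0.31. Among all tested genes 35% were higher and 29.1% lower. The early response gene Ier2 read 8.88, 9.05 and 8.62 in NCSC, against 12.10, 12.69 and 12.16 in MSC, and differed by -3.47 ± 0.20 (SE, adjusted p = 2.56e-05). The phosphatase Dusp1 and the transcription factor Egr1 differed by -3.15 ± 0.30 and -1.94 ± 0.15. The count of lower members was 6 without NCSC 1, and that of higher members was 2 without MSC 1, MSC 3 or NCSC 1. In those fits 54.34% to 55.28% of all tested genes were called, against 64.1% with all 6 arrays. Many receptors other than ErbB drive these genes.

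**Figure D4:**
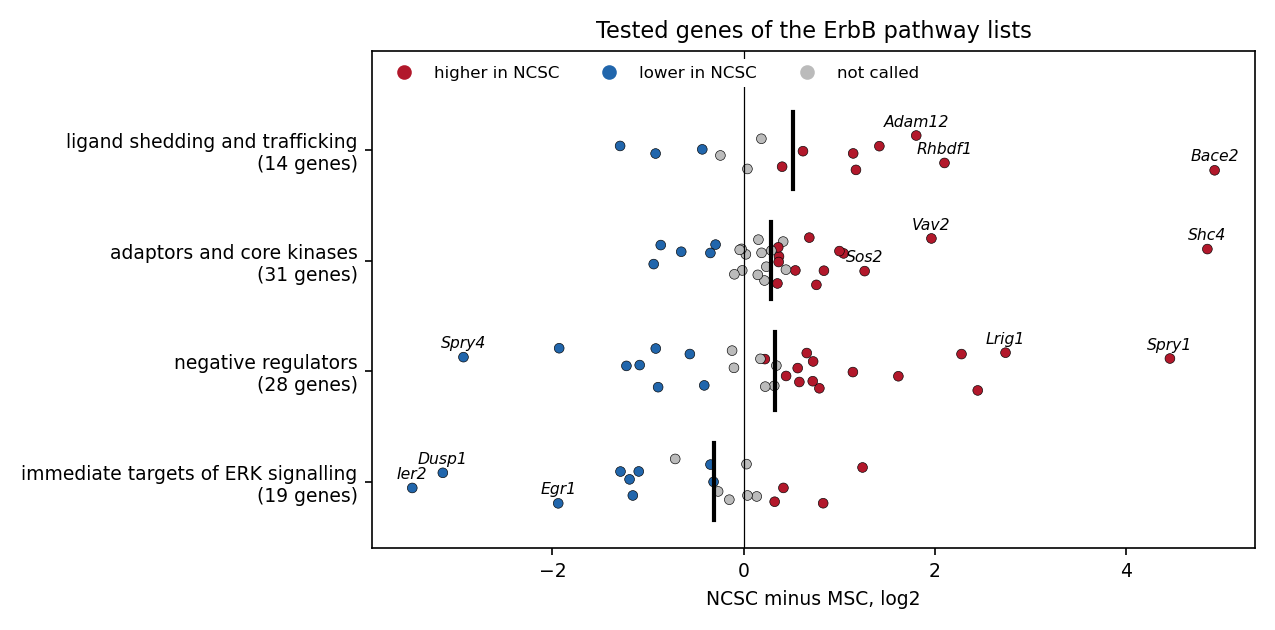
Difference of each tested gene of 4 pathway lists, NCSC minus MSC on the log2 scale (horizontal axis), coloured by whether it was called higher, called lower or not called, with the median of each list as a black bar. The medians lie at 0.513, 0.292, 0.333 and -0.31 from the top list to the bottom one.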

How the data were processed

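RNA of 3 NCSC and 3 MSC samples was measured on Affymetrix arrays. The authors deposited probe set intensity values on a linear scale made with GCRMA, per the submitters' processing notes. GCRMA subtracts a background estimated from probe sequence, brings arrays to a common scale and summarises each probe set. The file names no scale; values between 4.36 and 116597 show it to be linear. Values were taken to log2 with no further normalization, and 2.12 is their floor. Of 45101 probe sets 34945 had 1 gene in GEO's platform annotation, and 932 had several and were left out. Symbols were updated through the RefSeq genes of GRCm38.p6, which held 34741 of them. Each gene was its kept probe set (log2 above 4 on at least 3 arrays) with the highest mean over all arrays. NCSC minus MSC was tested by limma 3.58.1 (R 4.3.3, lmFit then eBayes, two-sided, without covariates) over 10501 genes, and again over 18640 kept probe sets, with Benjamini-Hochberg adjustment and a threshold of 0.05. The fit was also run on simulated data with few changed genes and independent noise, which checks the code and not the calls made here. Where the dimmer group's mean was at or under 4, the fold is a lower bound against values set to at least 4. Lists are described by counts and medians. From each list up to 3 genes were named, those with the largest difference among called, at least 2-fold changed and non-overlapping genes. The members and lists were chosen with earlier results of these data known. The alternatives tried were other filters, a floor at 4, the mean of probe sets, quantile normalization, a trended and robust fit, array weights, a replicate block and leaving out arrays.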

Additional observations from a re-analysis of the deposited data

How the results depend on the processing

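Under 15 alternatives, of which leaving out MSC 2 and NCSC 3 together was chosen after seeing the data, the 9 tested ErbB genes gave 135 differences, and 135 of these kept their direction and their call, with the highest adjusted p at 0.0161 (Nrg1, lowest 3.48e-05). Erbb3 and Btc passed the limit through their NCSC arrays alone, so their direction was built in wherever low values were filtered. The Egfr difference moved most, from -1.12 without MSC 2 and NCSC 3 together to -4.86 with the mean of its kept probe sets, which includes the probe sets that were under the limit in NCSC. The share of all genes called was 32.03% without the filter on low values, where 18193 genes were tested, against 64.1% with it, and 9 members were called in both. Leaving out 1 array at a time gave 9 called members each time, with 54.34% to 68.41% of all genes called and 52 to 71 of the 92 tested pathway genes. Leaving out MSC 2 and NCSC 3 together gave 9 called members, with 74.02% of all genes called. With the stricter filter at 5, 13 member probe sets were called, against 14 with the limit of 4. Of all kept probe sets 60.1% were called with the limit of 4, and of the 10171 genes tested with the filter at 5 64.54% were called. The Btc probe set 1421161_at, at 5.73, 4.24 and 6.20 in NCSC, was above 5 on too few arrays to be kept. The labels give no pairing of the samples. Deviations of same-numbered arrays from their group means correlated at -0.0985, 0.0621 and 0.0729, and NCSC 1 correlated best with MSC 2. With 3 arrays a group these correlations cannot decide whether the replicate numbers pair the samples. With the replicate number as a block 9 members and 59.58% of all genes were called, and it changed no call of a member. No depth is known for array values, and readings under the limit of 4 bound the folds of Erbb3, Btc and Egfr.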

Other observations

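The genes whose values followed those of Erbb3 most closely over the 6 arrays, by root mean square distance after subtracting each gene's mean, were Sntb1 (0.176), Shroom2 (0.217), Klhl30 (0.241), Slc35f1 (0.251) and Cdh19 (0.274), out of 10501 tested genes. All 5 had NCSC means of 12.40 to 13.05, against MSC means of 2.15 to 2.48, and the 6 arrays form only 2 groups. For the Egfr probe set that stands for the gene the nearest were Col12a1 (0.105), Mdm2 (0.105), Helz2 (0.115), Pla2g15 (0.129) and Serpinb6e (0.137).

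Ereg and Btc are near neighbours on chromosome 5 in GRCm38.p6, with 1 protein-coding gene, the ligand gene Areg, between them. They differed in opposite directions, Ereg by -3.96 and Btc by at least 9.09-fold higher in NCSC, and Areg was not analysed here.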
